A study of Mus musculus with 10 samples.

Results

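The guanylate-binding proteins (GBPs) of the mouse are encoded by a gene family in 2 clusters, one on chromosome 3 and one on chromosome 5. The 8 genes Gbp2, Gbp3, Gbp4, Gbp5, Gbp6, Gbp7, Gbp8 and Gbp9 were taken by their gene symbols from a table of raw read counts for 48526 Ensembl gene identifiers. All 8 had a row, 4 on each chromosome. The RNA came from 10 libraries labelled as endothelial cells, the cells that line vessels, sorted from the aorta of ApoE mice by fluorescence-activated cell sorting. In 5 libraries the mice had been put under acute mental stress for 3 h on each of 3 days in a row, and in the other 5 they had not. The study asked which changes this stress brings about in the cells. ApoE stands as the strain of every library of both groups; the labels give no age and no sex, and do not say whether a library came from 1 animal or from several, so the p-values below measure the spread between these samples.

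GBPs are large GTPases of the dynamin superfamily and are among the genes most strongly induced by interferon-gamma. The cytokine acts through its receptor and the kinases Jak1 and Jak2, and a DNA element of its target genes is the gamma-activated site (GAS). Interferon regulatory factors bind a second element, the interferon-stimulated response element (ISRE). In infected macrophages GBPs gather on the vacuoles of parasites and on bacteria in the cytosol, together with the smaller immunity-related GTPases (IRGs), and help to start inflammasome signalling. In vessels they are known as interferon-gamma targets of both endothelial cells and leukocytes.

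The chromosome 3 genes lie on the plus strand of mm10 within 144 kb, chr3:142493978-142638008, in the order Gbp5, Gbp7, Gbp3, Gbp2b and Gbp2. The chromosome 5 genes lie on the minus strand within 332 kb, chr5:105014150-105346472, in the order Gbp8, Gbp9, Gbp4, Gbp10, Gbp6 and Gbp11. Gbp2b, Gbp10 and Gbp11 are GBP genes outside the 8 members, and the annotation calls Gbp11 a polymorphic pseudogene. The promoters of the 4 chromosome 3 members are shown because interferons are known to act on this family through promoter motifs, and were searched for them. Those of Gbp4, Gbp6, Gbp8 and Gbp9 were not searched, so the clusters are not compared by motif. Each covers 300 bases around the start site. They are taken from RefSeq on GRCm38.p6 (mm10) and carry in capitals each match to GAS (TTCNNNGAA) or to the ISRE core (GAAANNGAAA, read on either strand).
Gbp5 promoter, chr3:142496684-142496983, plus strand: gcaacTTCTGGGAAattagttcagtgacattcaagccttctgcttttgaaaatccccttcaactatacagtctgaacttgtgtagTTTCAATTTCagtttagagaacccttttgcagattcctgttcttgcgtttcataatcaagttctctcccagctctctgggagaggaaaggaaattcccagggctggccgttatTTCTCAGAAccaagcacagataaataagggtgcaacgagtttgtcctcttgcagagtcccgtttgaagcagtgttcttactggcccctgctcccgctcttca
Gbp7 promoter, chr3:142530086-142530385, plus strand: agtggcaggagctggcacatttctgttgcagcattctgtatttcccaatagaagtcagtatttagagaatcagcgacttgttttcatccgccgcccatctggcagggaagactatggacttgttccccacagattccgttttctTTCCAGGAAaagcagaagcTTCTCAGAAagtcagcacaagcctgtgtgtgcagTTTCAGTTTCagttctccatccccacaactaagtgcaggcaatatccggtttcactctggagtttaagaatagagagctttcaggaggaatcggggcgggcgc
Gbp3 promoter, chr3:142559794-142560093, plus strand: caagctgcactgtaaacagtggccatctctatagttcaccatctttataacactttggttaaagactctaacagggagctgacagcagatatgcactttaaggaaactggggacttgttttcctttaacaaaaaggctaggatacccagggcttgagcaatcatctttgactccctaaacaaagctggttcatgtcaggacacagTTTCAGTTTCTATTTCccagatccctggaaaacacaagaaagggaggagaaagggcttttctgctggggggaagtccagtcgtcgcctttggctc
Gbp2 promoter, chr3:142620413-142620712, plus strand: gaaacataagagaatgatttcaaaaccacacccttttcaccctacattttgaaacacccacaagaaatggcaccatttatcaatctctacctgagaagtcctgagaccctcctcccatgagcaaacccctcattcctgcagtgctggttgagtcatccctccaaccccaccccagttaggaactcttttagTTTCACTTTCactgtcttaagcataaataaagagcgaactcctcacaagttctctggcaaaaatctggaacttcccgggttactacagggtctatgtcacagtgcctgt

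Each of these 4 promoters held an ISRE core on the minus strand, and Gbp5 and Gbp7 also held 2 GAS matches each. In Gbp2 the ISRE core lay at -59 to -50 from the start site. In Gbp7 it lay at -53 to -44, downstream of GAS matches at -106 to -98 and -87 to -79. The promoter of Gbp5 had GAS matches at -245 to -237 and -52 to -44, with the ISRE core between them at -165 to -156. The annotated Gbp5 gene begins upstream of this promoter, at chr3:142493978, and that start was not searched. The Gbp3 promoter held 2 overlapping ISRE cores, at -45 to -36 and -39 to -30, and no GAS match. A further promoter entry of Gbp3, with a start site downstream of this one, held neither. Of 32851 promoters of the same length, 8.3% held a GAS match and 3.44% an ISRE core. A match is a string of letters and was not measured as a site in these cells.

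Total counts ran from 18020220 to 38237346 per library, so that a count of 0 allows a level of up to 0.0785 to 0.166 counts of a gene per 1000000 counts of the library (CPM), taken as 3 counts and covering counting error only. Although the libraries are labelled endothelial, transcripts of monocytes and macrophages were far more abundant than those of endothelium. The macrophage lysozyme Lyz2 ran from 15692 to 26749 CPM, Ptprc, the leukocyte antigen CD45, from 2649.7 to 3019 CPM, and Csf1r, the receptor for macrophage growth factor, from 2323 to 2766 CPM. The 11 endothelial markers together reached 32.7 to 88.4 CPM. Of these, Tek, Cldn5 and Emcn were at 0 reads in every library, and 6 of the 11 were at 0 in 5 or more libraries. The Gbp levels are therefore those of a sorted population rich in myeloid transcripts.

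Gbp2, Gbp3 and Gbp9 were the most abundant members. Per kilobase of exon (RPKM), Gbp2 stood at 39.9 ± 14.9 and Gbp3 at 36.2 ± 7.31 (SD, n = 10 libraries). Gbp2 was above Gbp3 in 6 of 10 libraries, so these neighbours in the order did not differ beyond their spread. Gbp9 followed at 23.6 ± 4.88 RPKM, below Gbp3 in 10 of 10 libraries. Then came Gbp7 at 10.9 ± 2.1 RPKM and Gbp5 at 6.51 ± 1.41 RPKM. From Gbp3 down to Gbp4, each gene was above the next in 10 of 10 libraries. The least abundant were Gbp4 at 1.74 ± 0.824, Gbp8 at 1.29 ± 0.661 and Gbp6 at 0.544 ± 0.375 RPKM, and the order of Gbp4 over Gbp8 and of Gbp8 over Gbp6 held in 8 of 10 libraries. Thus the chromosome 5 cluster held 1 abundant and 3 scarce members, whereas the 4 chromosome 3 members all stood above those 3.

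**Figure D1:**
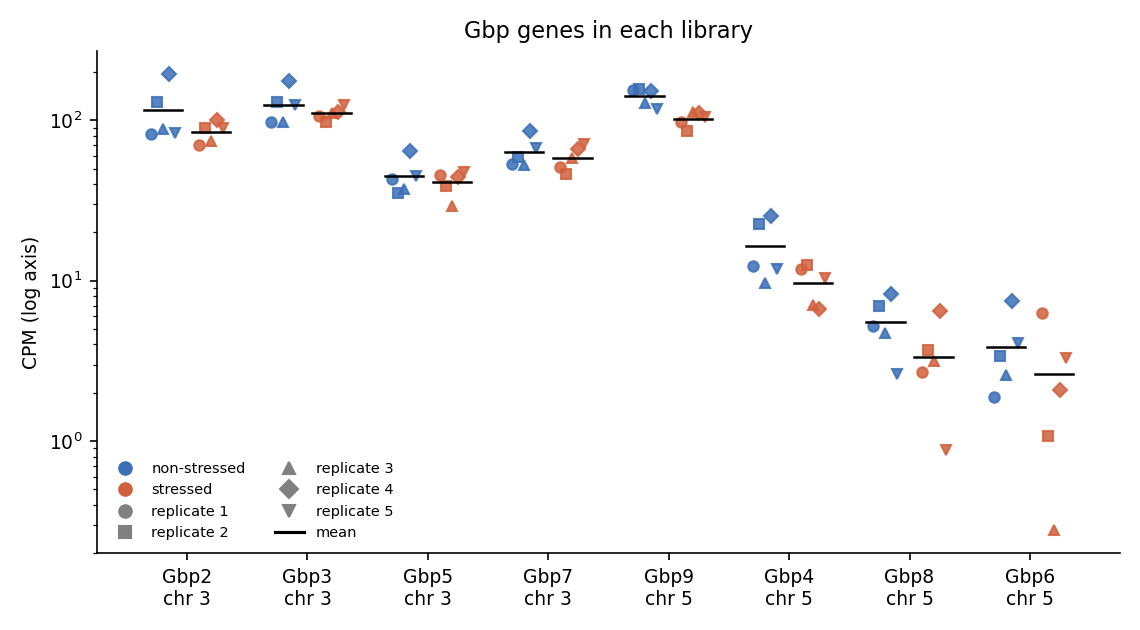
CPM of the 8 Gbp genes on a log axis, 1 point per library for the 5 non-stressed and the 5 stressed libraries, with the mean of each group. Gbp9 is the member whose groups do not overlap, at 117 to 158 CPM without and 85.4 to 113 CPM with stress.

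All 8 members had a lower mean in the stressed group, by an estimate that ran from -0.12 to -0.75 on the log2 scale, and 0 of 8 passed the adjusted threshold. The test was edgeR's quasi-likelihood test, and Benjamini-Hochberg adjustment ran over all 13334 genes tested at 0.05, of which 1 was called (0.0075%). At an unadjusted p below 0.05, 2 of the 8 members (Gbp9 and Gbp4) were lower under stress, beside 393 of all genes tested (2.95%). In 1 of the 8 (Gbp9) all 5 stressed libraries lay below all 5 non-stressed libraries, as they did for 69 of all genes tested (0.517%). The median log2 fold change was -0.46 for the members and 0.00447 for all genes tested, of which 49.1% had a negative sign. Fewer cells that carry these transcripts and less RNA per cell cannot be told apart in bulk libraries.

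**Figure D2:**
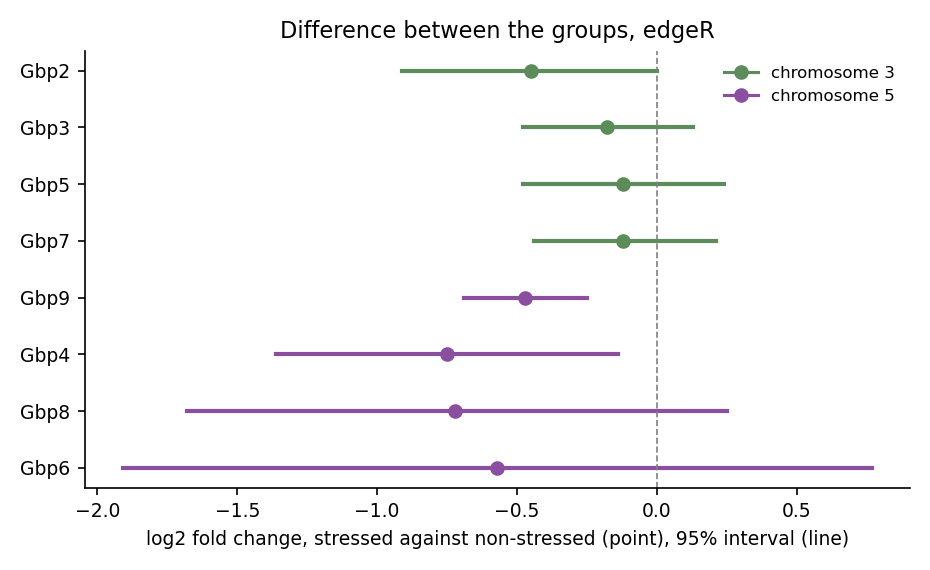
Log2 fold change of each Gbp gene, stressed against non-stressed (edgeR), as a point with its 95% interval as a line. Every estimate is negative; the intervals of Gbp9 (-0.69 to -0.25) and Gbp4 (-1.36 to -0.14) do not reach 0 before adjustment.

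Among the chromosome 3 genes, Gbp2 is known for its recruitment to pathogen vacuoles and to bacteria that have escaped into the cytosol. It lies at chr3:142620602-142638008 (ENSMUSG00000028270). In non-stressed libraries 1 to 5 it was at 81.9, 130.2, 88.6, 196 and 83.5 CPM, and in stressed libraries 1 to 5 at 69.9, 89.4, 73.9, 100.4 and 89.1 CPM. The groups overlapped, and non-stressed libraries 4 and 2 were the highest of all 10. The means were 116 ± 48.9 and 84.6 ± 12.5 CPM (SD, n = 5 each). The edgeR log2 fold change was -0.45 (SE 0.213, 95% interval -0.91 to 0.00133, adjusted p = 0.893). Without non-stressed library 4 it was -0.178.

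Gbp3, which also coats parasite vacuoles, lies at chr3:142560026-142573209 (ENSMUSG00000028268). Its non-stressed libraries read 98.1, 130.2, 97.5, 177 and 125 CPM and its stressed libraries 107, 97.3, 112, 113 and 124 CPM. The stressed libraries sat within or next to the non-stressed range and were the more even, with a coefficient of variation of 8.88% against 25.8%. Group means were 126 ± 32.4 without and 111 ± 9.83 CPM with stress, a log2 fold change of -0.18 in edgeR (SE 0.143, 95% interval -0.48 to 0.13, adjusted p = 0.95). Leaving out non-stressed library 4 gave -0.0197.

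Gbp5, known for promoting assembly of the Nlrp3 inflammasome, lies at chr3:142493978-142522344 (ENSMUSG00000105504). The non-stressed libraries were at 43.4, 35.1, 37.5, 64.2 and 45.3 CPM and the stressed libraries at 45.7, 38.9, 29.4, 44.4 and 48 CPM. Apart from the high value of non-stressed library 4 and the low value of stressed library 3, both groups covered the same range. The mean was 45.1 ± 11.5 against 41.3 ± 7.46 CPM, with a log2 fold change of -0.12 (edgeR, SE 0.17, 95% interval -0.48 to 0.24, adjusted p = 0.971). Its sign turned without non-stressed library 4, at 0.0425.

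Gbp7, linked in macrophages to the delivery of NADPH oxidase parts to bacterial vacuoles, lies at chr3:142530342-142550149 (ENSMUSG00000040253). It read 53.5, 59.3, 52.7, 85.9 and 67.6 CPM without stress and 51.5, 46.1, 57.9, 66.6 and 71.2 CPM with it. Here too the groups overlapped and non-stressed library 4 was the highest. Mean levels were 63.8 ± 13.7 and 58.7 ± 10.4 CPM, and edgeR gave a log2 fold change of -0.12 (SE 0.153, 95% interval -0.44 to 0.21, adjusted p = 0.971). Without non-stressed library 4 the estimate was 0.0172, again a turn of sign. Of the exon bases of Gbp7, 11.3% are shared with the predicted pseudogene Gm43802, which had 0 reads.

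On chromosome 5, Gbp9 is the abundant member and one of the GBPs found on parasite vacuoles. It lies at chr5:105077630-105139539 (ENSMUSG00000029298). Non-stressed libraries 1 to 5 were at 154, 158, 128, 152 and 117 CPM, and stressed libraries 1 to 5 at 98.2, 85.4, 113, 111 and 105 CPM. The highest stressed library lay below the lowest non-stressed one, by a narrow gap. The mean was 142 ± 18.2 without and 103 ± 11.1 CPM with stress, 1.38-fold lower under stress. Its coefficient of variation was 12.8% without stress, the smallest of the 8 members there, and 10.9% with it. Gbp9 had a log2 fold change of -0.47 (SE 0.103, 95% interval -0.69 to -0.25) and an unadjusted p of 0.000434, which edgeR adjusted to 0.429. DESeq2 put its adjusted p at 0.0317; in the other 23 of 24 alternative fits Gbp9 stayed above the threshold. Its estimate kept its sign in all 24, from -0.534 to -0.405.

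Gbp4, reported to bind the interferon regulatory factor Irf7, lies at chr5:105115767-105139586 (ENSMUSG00000079363). Its levels were 12.3, 22.6, 9.72, 25.4 and 11.8 CPM in the non-stressed and 11.9, 12.6, 7.05, 6.7 and 10.4 CPM in the stressed libraries. Non-stressed libraries 2 and 4 were the highest of all 10 libraries, and the other non-stressed libraries overlapped the stressed group. Means were 16.4 ± 7.12 and 9.73 ± 2.73 CPM, 1.68-fold apart. The log2 fold change was -0.75 in edgeR (SE 0.285, 95% interval -1.36 to -0.14), with an unadjusted p of 0.0194 and an adjusted p of 0.874. Without non-stressed library 4 it was -0.532.

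Gbp8, at chr5:105014150-105139540 (ENSMUSG00000034438), was scarce. It read 5.21, 6.98, 4.71, 8.21 and 2.61 CPM without stress and 2.68, 3.68, 3.16, 6.43 and 0.877 CPM with it, the last of these from 23 reads. Library 5 was the lowest of each group and library 4 the highest of each. The mean was 5.54 ± 2.16 against 3.37 ± 2.01 CPM, with a log2 fold change of -0.72 (edgeR, SE 0.451, 95% interval -1.68 to 0.25, adjusted p = 0.943). It was -0.475 without stressed library 5 and -1.1 without stressed library 4. Gbp4, Gbp8 and Gbp9 overlap on the minus strand and share exon bases, 0.814% of those of Gbp4, 1.77% of Gbp8 and 1.16% of Gbp9.

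Gbp6, at chr5:105270702-105293698 (ENSMUSG00000104713), is also found on parasite vacuoles and was the scarcest and the most variable. The non-stressed libraries read 1.89, 3.37, 2.58, 7.43 and 4.1 CPM and the stressed libraries 6.32, 1.07, 0.277, 2.09 and 3.28 CPM, where library 3 holds 5 reads. The groups overlapped in part, with 2 stressed libraries below all non-stressed ones, and stressed library 1 was exceeded only by non-stressed library 4. With means of 3.87 ± 2.15 and 2.61 ± 2.36 CPM, edgeR gave a log2 fold change of -0.57 (SE 0.628, 95% interval -1.91 to 0.77, adjusted p = 0.961). That value was -0.189 without non-stressed library 4 and -1.19 without stressed library 1. The count of Gbp6 is uncertain, since 42.7% of its 75-base exon stretches occur unchanged in another Gbp gene, 40.4% in Gbp10, and 29% of its exon bases overlap the predicted gene Gm43302, listed at 0 reads in every library. Among the other members this share ran from 0 for Gbp5 to 8.04% for Gbp8.

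The 3 GBP genes outside the members were near the limit of detection and did not pass the filter on low counts. Over the 10 libraries Gbp2b held 130 reads, Gbp11 held 109 and Gbp10 held 42. In each of the 3, stressed library 1 held the most, with 61, 57 and 25 reads, and stressed libraries 2, 4 and 5 held 0. The same library was high for Gbp6, with which Gbp10 shares 65.6% of its 75-base exon stretches.

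Most members were highest in the same library. Non-stressed library 4 was the highest of all 10 for 7 of the 8 members, and non-stressed library 2 was the highest for the other, Gbp9. The share of all genes tested that were highest in non-stressed library 4 was not counted. Non-stressed library 2 was among the top 2 for 5 members. At the low end, stressed library 2 was the lowest for 3 members and stressed library 3 for 2. Without non-stressed library 4 the median log2 fold change of the members was -0.184 in place of -0.46, and that of the chromosome 3 members was -0.00127 in place of -0.15. The chromosome 5 median was -0.484 in place of -0.64. In that library the summed level of T and NK cell markers was 23.5 CPM, near the low end of the non-stressed range of 22.9 to 143 CPM. Its dendritic cell markers summed to 2469 CPM, within the range of 1429.7 to 5411 CPM. Its monocyte and macrophage markers had the highest sum of all 10 libraries, at 37117 CPM, and its neutrophil markers the lowest, at 196 CPM. B cell markers were the lowest of the non-stressed group at 481 CPM. Non-stressed library 5 had similar sums, at 199 CPM for neutrophil and 22.9 CPM for T and NK cell markers. Stressed library 4 had monocyte and macrophage markers at 36809.6 CPM. Both of these libraries were among the top 2 for 0 members. The part of any of these cell types in the high Gbp levels was not tested.

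**Figure D3:**
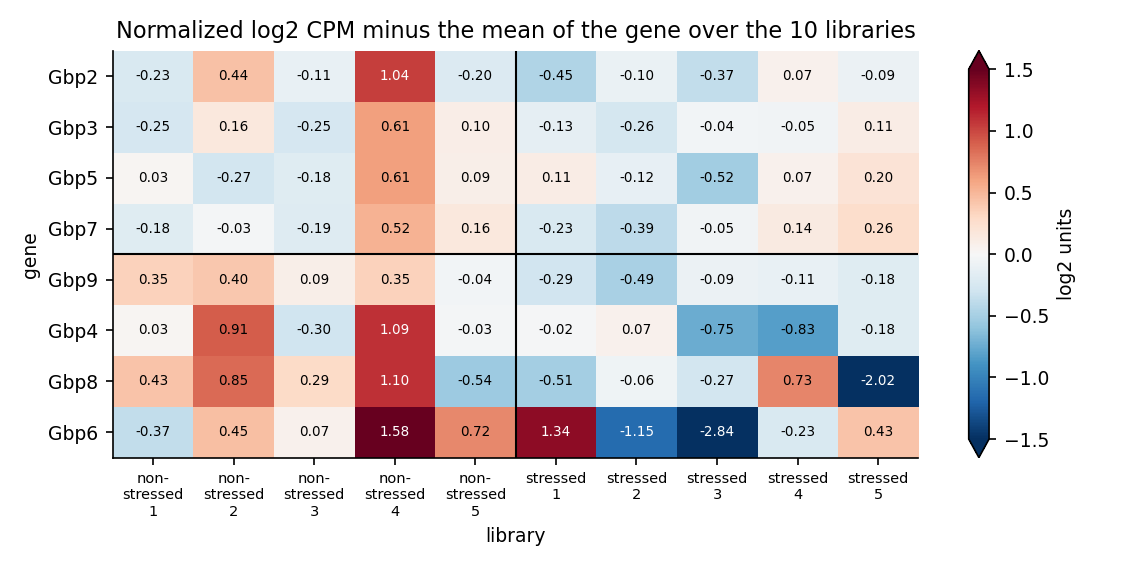
Normalized log2 CPM of each Gbp gene in each library minus that gene's mean over the 10 libraries, with the value in each cell and colours capped at 1.5 log2 units either way. The column of non-stressed library 4 is positive in every row, from 0.35 for Gbp9 to 1.58 for Gbp6, while that of stressed library 3 is negative in every row.

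Summed over the cluster, the chromosome 3 members reached 277, 355, 276, 523 and 321 CPM in non-stressed libraries 1 to 5 and 274, 272, 274, 324 and 333 CPM in stressed libraries 1 to 5. Their groups overlapped, with 3 of 5 stressed libraries just below the non-stressed range. The means were 350.4 ± 102 and 295 ± 30.5 CPM, a change of the mean of -15.8%. Summed levels of the chromosome 5 members were 173, 191, 145, 193 and 136 CPM without and 119, 103, 123, 127 and 119.7 CPM with stress. Here 5 of 5 stressed libraries lay below the non-stressed range, at means of 168 ± 26.4 and 118 ± 9.13 CPM (-29.6%). Gbp9 supplied 85 ± 4.21% of this sum without and 86.6 ± 3.75% with stress, so the sum follows mainly that gene. The other 3 chromosome 5 members summed to 25.8 ± 10.7 against 15.7 ± 3.81 CPM, with 3 of 5 stressed libraries below all non-stressed ones.

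The 2 clusters were compared within each library, where the scaling cancels. The log2 ratio of the chromosome 3 to the chromosome 5 sum was 0.676, 0.889, 0.928, 1.434 and 1.242 in the non-stressed and 1.201, 1.403, 1.153, 1.356 and 1.475 in the stressed libraries. Only 1 stressed library stood above all non-stressed libraries. The means were 1.03 ± 0.301 and 1.32 ± 0.136 (SD, n = 5 each), with a difference of 0.284. An SD describes single libraries and is not the error of this difference, which was not computed. The difference ran from 0.194 to 0.384 as each library was left out in turn. It was 0.411 without the most abundant member of each cluster. By gene, the log2 fold changes of the chromosome 3 members ran from -0.45 to -0.12 (median -0.15) and those of the chromosome 5 members from -0.75 to -0.47 (median -0.64). The 2 ranges nearly touch, at Gbp2 and Gbp9, and the intervals of the single genes overlap. They met, for example, without non-stressed library 1 (Gbp2 -0.563, Gbp9 -0.444) and with the T and NK marker level as a covariate (Gbp2 -0.505, Gbp9 -0.48). With the dendritic marker level as a covariate the medians lay closer, at -0.223 for chromosome 3 and -0.471 for chromosome 5. With the replicate number as a block the medians lay farther apart, at -0.129 and -0.769. In limma-voom they were also farther apart, at -0.0799 and -0.692. No test of the difference between the clusters was made.

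**Figure D4:**
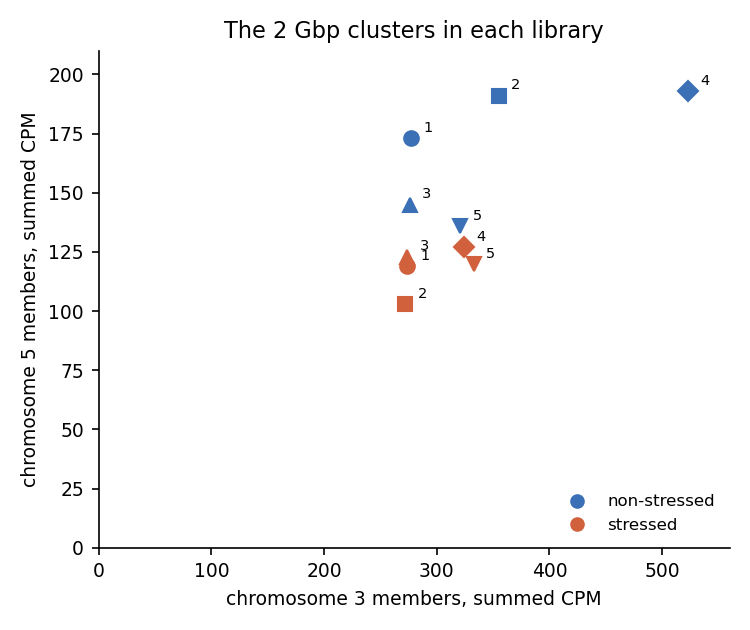
Summed CPM of the chromosome 3 members (horizontal) against the chromosome 5 members (vertical), 1 point per library. The stressed libraries lie at 103 to 127 CPM on the vertical axis, below the non-stressed libraries at 136 to 193 CPM, while the horizontal ranges overlap.

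The difference between the groups was also compared between libraries with and without Y-linked transcripts, and 0 of the 8 members passed the adjusted threshold of the interaction. The Y-linked gene Ddx3y had more than 100 reads in libraries 2, 3 and 4 of each group and not in libraries 1 and 5. Sex is not in the labels. In the 3 against 3 libraries with these transcripts, all 8 log2 differences were negative, from -2.11 for Gbp6 to -0.2 for Gbp7. The share of all genes with a negative difference in these libraries was not counted. They include non-stressed libraries 4 and 2, the highest of all 10 for 7 members and 1 member. In the 2 against 2 libraries without Y-linked transcripts the log2 differences ran from -1.21 for Gbp8 to 0.707 for Gbp6. Gbp8 had the larger drop without these transcripts, at -1.21 against -0.609 with them. The part of the high non-stressed libraries 4 and 2 in the contrast between the 2 kinds was not tested. Gbp9 was lower under stress in both kinds, by -0.512 with and -0.391 without (edgeR interaction, adjusted p = 1). Gbp4 stood at -1.07 with and -0.0998 without (edgeR interaction, adjusted p = 1). The smallest unadjusted interaction p of the family in edgeR was 0.036, for Gbp6 (adjusted p = 1), and 574 of 13334 genes had an unadjusted interaction p below 0.05 with 0 called.

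The genes that act before the GBPs in the interferon-gamma pathway did not pass the adjusted threshold either. Of 12 receptor and signalling genes 11 were tested, with 6 lower and 5 higher and a median of -0.06. At an unadjusted p below 0.05 in edgeR 2 were lower, beside 2.95% of all genes tested. Ifngr1, the ligand-binding receptor chain, was at 791 ± 142 CPM without and 794 ± 74.3 CPM with stress, and Ifngr2 at 251 ± 24.7 and 257 ± 13.4 CPM. Jak2, a kinase of the receptor named after its values were seen, was at 157 ± 17.7 and 138 ± 10.5 CPM (log2 fold change -0.19 in edgeR, adjusted p = 0.886). Of the type I interferon receptor and signalling genes, 8 of 9 were tested and 0 reached an unadjusted p below 0.05, with a median of -0.08. Irf7, a factor that drives type I interferon genes, read 644 ± 85.2 and 534 ± 141 CPM (-0.27, adjusted p = 0.928).

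Other interferon-gamma targets and the IRGs had negative estimates in nearly every gene, and 0 were called. Of the other targets 9 of 11 were tested, 8 lower and 1 higher, with 3 lower at an unadjusted p below 0.05 and a median of -0.28. Over all genes tested, 49.1% were lower, and 2.95% were lower at an unadjusted p below 0.05 in edgeR. Tap1, a peptide transporter of antigen presentation, was at 400 ± 37 CPM without and 328 ± 38.2 CPM with stress (log2 fold change -0.28 in edgeR, adjusted p = 0.829). Nlrc5, the activator of MHC class I genes, was at 207 ± 29.1 and 164 ± 24.4 CPM (-0.34, adjusted p = 0.83). Ciita, the activator of MHC class II genes, stood at 87.3 ± 48.9 and 50.7 ± 10.7 CPM (-0.78, adjusted p = 0.836) and was named after its values were seen. Its highest library was at 169.5 CPM, and without non-stressed library 2 its log2 fold change was -0.4.

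Among the IRGs, 10 of 11 were tested and 10 of 10 were lower, with a median of -0.38, where 49.1% of all genes tested were lower. At an unadjusted p below 0.05 in edgeR 5 IRGs were lower, beside 2.95% of all genes tested. Irgm1, which steers other IRGs away from host membranes, was at 215 ± 28.7 and 179 ± 27 CPM (log2 fold change -0.26 in edgeR, adjusted p = 0.876). Ifi47 read 187 ± 30.6 and 136 ± 29.5 CPM (-0.45, adjusted p = 0.829), and Irgm2 read 106 ± 18.8 and 85.9 ± 15.1 CPM (-0.3, adjusted p = 0.893). Gm12250 and Iigp1 are given after their values were seen. Gm12250 was at 41.9 ± 7.03 and 29.6 ± 4.17 CPM (-0.5, edgeR adjusted p = 0.703). For this gene 5 of 5 stressed libraries lay below all non-stressed ones, as they did for 0.517% of all genes tested. Iigp1 reached 27.5 CPM in non-stressed library 4, the same in which 7 Gbp genes were highest, against a non-stressed mean of 8.65 ± 10.9 and a stressed mean of 2.32 ± 1.33 CPM. Its log2 fold change was -1.9, and -0.76 without that library (edgeR).

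**Figure D5:**
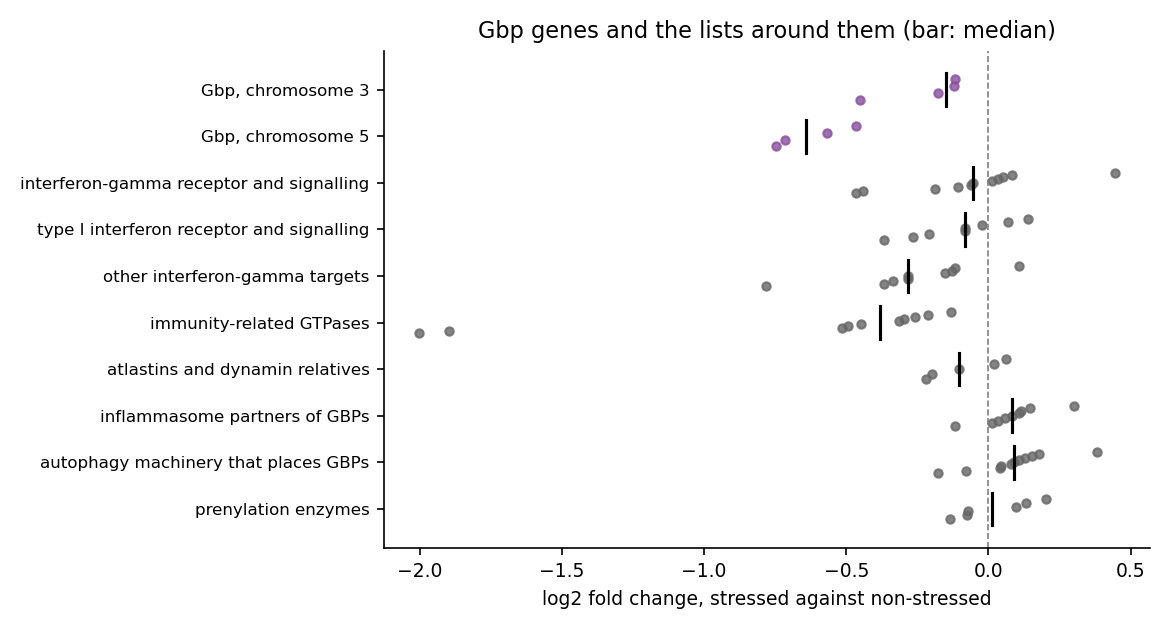
Log2 fold changes, stressed against non-stressed (edgeR), of the tested genes of each list, 1 point per gene with the median as a bar. The chromosome 5 Gbp members (median -0.64) and the IRGs (median -0.38) lie left of 0, while the inflammasome (0.08) and autophagy (0.09) medians lie right of it.

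The machinery through which GBPs act had medians near 0, with single estimates of up to 0.3 among the inflammasome genes and 0.38 among the autophagy genes. Of 9 inflammasome genes all 9 were tested, 1 lower and 8 higher, with a median of 0.08 and 0 at an unadjusted p below 0.05. Nlrp3, the sensor that Gbp5 acts on, read 119.9 ± 10.2 CPM without and 129 ± 17.4 CPM with stress (log2 fold change 0.11, edgeR adjusted p = 0.95). Gsdmd, the pore-forming substrate of inflammatory caspases, read 229 ± 22.5 and 246 ± 25.3 CPM (0.11, adjusted p = 0.95). Autophagy genes, whose conjugation system is needed to place GBPs on vacuoles, were all 11 tested with 2 lower and 9 higher and a median of 0.09. Of these Atg5 had an unadjusted p below 0.05, at 39.6 ± 7.47 and 51.5 ± 4.71 CPM (0.38, adjusted p = 0.836), and was named for it. The prenylation enzymes, which add the lipid anchor that Gbp2 and Gbp5 carry or process the protein afterwards, had a median of 0.01 over 6 genes. Of 8 atlastins and dynamin relatives, 5 were tested, with a median of -0.1.

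Markers of other cell types are set beside the Gbp genes, and 0 of them passed the adjusted threshold. Dendritic cell markers had a median of -0.57 over 10 tested genes, with 8 lower and 2 higher (4 and 1 at an unadjusted p below 0.05). Over all 13334 genes tested, 393 were lower and 345 higher at that level in edgeR. Named after their values were seen, the 2 higher markers were Flt3 (0.45) and Zbtb46 (0.19). The dendritic markers summed to 2374, 5411, 1977, 2469 and 1429.7 CPM in the non-stressed and 1719, 1542, 1179.5, 1569 and 967 CPM in the stressed libraries. Most of the sums came from 2 MHC class II genes, Cd74 and H2-Aa. Cd74, the invariant chain, was at 1892 ± 1064 and 924 ± 195 CPM (log2 fold change -1.03 in edgeR, adjusted p = 0.684, and -0.64 without non-stressed library 2). H2-Aa was at 594 ± 421 and 263 ± 71.2 CPM (-1.17, edgeR adjusted p = 0.752, and -0.64 without non-stressed library 2). The T and NK cell list had a median of -0.61 over 12 genes, with sums of 22.9 to 143 CPM without and 15.7 to 108 CPM with stress. B cell markers were lower in 7 of 7 (median -0.24; 481 to 918 and 339 to 635 CPM), and those of monocytes and macrophages in 6 of 10 (median -0.07; 25082 to 37117 and 29677 to 36809.6 CPM). Erythroid markers were higher in 7 of 7 (median 0.72), 5 of them at an unadjusted p below 0.05, platelet markers in 6 of 7 (0.42) and neutrophil markers in 5 of 8 (0.41). The 4 endothelial markers tested had negative estimates, with a median of -0.29 and 0 at an unadjusted p below 0.05 in edgeR. Vwf was at -0.01, and Kdr and Tie1 were scarce, at non-stressed means of 1.24 and 0.671 CPM. The signs of Vwf and Kdr turned as single libraries were left out.

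With the dendritic marker level as a covariate the log2 fold change of Gbp9 was -0.444, that of Gbp4 -0.543 and that of Gbp8 -0.441, and the median of the members was -0.417. With the T and NK marker level as a covariate the same median was -0.493. Under either covariate all 8 estimates stayed negative and 0 members were called. In edgeR with the dendritic level the unadjusted p was 0.00204 for Gbp9 and 0.0791 for Gbp4. The fit without a covariate had 0.000434 and 0.0194 for these genes. With the T and NK level the unadjusted p in edgeR was 0.000324 for Gbp9, 0.019 for Gbp4 and 0.0219 for Gbp2. The dendritic level includes Cd74 and H2-Aa, so it is not separate from the expression of MHC class II genes. The part of the other cell types was not tested.

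Genes whose profile over the 10 libraries came closest to each cluster were found by the root mean square difference of centred log2 CPM from the mean profile of its members, among 10115 genes. Closest to the chromosome 3 profile, whose own spread was 0.266 log2 units, were, among others, Ly86 at 0.129, Mycbp2 at 0.136, H2-T23 at 0.139 and Ms4a6b at 0.149. Among the members, Gbp3 lay 0.0937 from that profile, Gbp7 0.124, Gbp5 0.184 and Gbp2 0.217. The chromosome 5 profile had a wider spread of 0.539, and its nearest genes were Tnfsf10 at 0.263, Zeb1 at 0.294, Slamf7 and Rgl1 at 0.297 and H2-Q7 at 0.303. Its own members lay at 0.335 for Gbp4, 0.41 for Gbp9, 0.682 for Gbp8 and 0.858 for Gbp6. The outside genes were picked as the nearest of 10115, while each member is part of the mean profile. Distances of members and of outside genes are therefore not compared, in either cluster. The profile of the chromosome 5 cluster weights its scarce members like Gbp9, whose deviations are the smaller.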

How the data were processed

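Per the labels' protocols, a PicoPure kit was used for the RNA of the sorted cells and a TruSeq Stranded kit for the libraries. Reads went through Trimmomatic, STAR and featureCounts on mm10, per the submitters' processing notes. The annotation, the strand setting, the handling of shared reads and all versions were not given in the sources used here. The authors deposited raw read counts per gene, not normalized. Of 48526 identifiers, 48144 had an entry in the GENCODE annotation of mm10; the other 382 held 0.025% to 0.0344% of a library's counts. Groups and replicate numbers came from the sample titles.

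Differences were tested in R 4.3.3 with edgeR 4.0.16 (filterByExpr at a minimum count of 10, TMM factors, intercept and group, quasi-likelihood F test). Benjamini-Hochberg adjustment at 0.05 ran over 13334 genes that held 99.9% of counts. The script was tested on simulated data. CPM use the library total (1000000 scale), centred profiles and the count of all genes whose groups do not overlap the TMM-scaled size. RPKM divide by the union of exons. Within each group every pair of libraries differed by more than sampling noise (chi-square per degree of freedom 22.3 to 69.8). The 8 members, the gene lists around them and the tests were chosen with earlier results of these data known. Named genes are the members, up to 4 genes of each list with the highest mean CPM or past the threshold, and for each cluster the 5 genes of nearest profile; others are said to be named after their values were seen. A few results under this rule are not reported here. Alternatives were RLE and upper-quartile factors, library totals, DESeq2 1.42.0, limma-voom (limma 3.58.1) with quality weights, a threshold of 0.1, a robust dispersion, a block for the replicate number, 2 other filters on low counts, Y-linked status or 2 marker levels as covariates, 1 surrogate variable (sva 3.50.0), other sums for the cluster ratio, and leaving out each library.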

Additional observations from a re-analysis of the deposited data

Results flagged for a closer look

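Libraries that stand apart from the other 4 of their group by a gap large against the group's range were looked for. Of 176 groups of 5 values 13 were marked, where chance marks about 1 in 20 groups of normally spread values. That rate does not hold where the other 4 libraries are at 0, since a mark is then certain. This was so for Gbp10 in the stressed group and for Myh11 in both groups. No value of the 8 Gbp members was among the marks. Among the GBP genes outside the members, stressed library 1 stood apart upward for Gbp2b (2.82 CPM), Gbp11 (2.63 CPM) and Gbp10 (1.15 CPM). Iigp1, an IRG, stood apart upward in non-stressed library 4 at 27.5 CPM. In non-stressed library 1 Il1b, the interleukin-1 beta gene, stood apart upward at 373 CPM, Dnm2, a dynamin, at 324 CPM and Myh11, a smooth muscle myosin, at 1.81 CPM. Non-stressed library 2 stood apart upward for H2-Aa, an MHC class II chain, at 1331 CPM, for Ighm at 517 CPM and for Cd8a at 24.2 CPM, and downward for Nlrp3 at 102 CPM. In the stressed group Myh11 was apart upward in library 3 at 0.222 CPM and Col1a1 in library 5 at 0.267 CPM.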

How the results depend on the processing

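The number of genes called was 1 in the test reported and 19 with DESeq2, 10 without a low-count filter, 9 with 1 surrogate variable, 5 with the T and NK marker level and 3 with the dendritic marker level as a covariate, 2 with limma-voom, and 1 to 2 as each library was left out (2 without non-stressed library 5). The number of members called was 0 throughout except for 1 with DESeq2, Gbp9 (log2 fold change -0.469, adjusted p = 0.0317); its adjusted p over 24 alternatives ran from 0.0317 to 1. The median of the members ran from -0.544 to -0.184 as each library was left out, Gbp5 from -0.206 to 0.0425 and Gbp7 from -0.204 to 0.0172; the value of -0.184, without non-stressed library 4, came with the reversed estimates of Gbp5 and Gbp7. The other 6 members were negative in all 24 alternatives. The chromosome 3 median ran from -0.226 to -0.00127 and the chromosome 5 median from -0.747 to -0.484 as each library was left out. The log2 ratio of the clusters differed by 0.411 without Gbp3 and Gbp9. The cause of these shifts was not tested.

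Replicate numbers are shared between the groups, but nothing in the labels says that they pair the samples. Same-numbered libraries had correlated deviations of 0.186, 0.253, -0.0503, 0.242 and 0.283, and those numbered 1 and 3 did not correlate best with their own number. With the replicate number as a block, 4 genes and 0 members were called, Gbp9 was at -0.464 (adjusted p = 0.241) and Gbp6 at -1.05 (adjusted p = 0.793). Unadjusted p-values of this edgeR fit were 0.000902 for Gbp9, 0.0121 for Gbp2, 0.0211 for Gbp4 and 0.0234 for Gbp8, where the fit without the block had Gbp9 and Gbp4 below 0.05. Depth limits Gbp6 and Gbp8, which held as few as 5 and 23 reads in a library.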
